A study of Homo sapiens with 8 samples.

Results

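The 7 genes described here encode the enzymes that make serine and pass its carbon into the folate cycle. PHGDH, PSAT1 and PSPH form the serine synthesis pathway, SHMT1 and SHMT2 are the serine hydroxymethyltransferases of the cytosol and the mitochondria, and MTHFD1 and MTHFD2 are folate dehydrogenases of the same compartments. Every probe set that the array annotation pairs with 1 of these gene symbols was taken, which gave 10 of the 22277 probe sets in the table. Another 2 probe sets are annotated with a member symbol and with further genes, and they are given by their identifiers only. The genes were chosen by earlier results of these arrays, their intensities with diclofenac and DMSO, so their differences with diclofenac are given as a description, beside the values of the fit over all probe sets.

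Serine synthesis begins with phosphoglycerate, a product of glycolysis. PHGDH oxidises it, PSAT1 moves an amino group onto the product using glutamate, and PSPH removes the phosphate to release serine. SHMT1 and SHMT2 then split serine into glycine and a carbon unit carried by tetrahydrofolate. MTHFD2 oxidises that unit in mitochondria and MTHFD1 handles it in the cytosol, where it feeds purine and thymidylate synthesis. In many proliferating cells, leukemia lines among them, the mitochondrial arm supplies most of these units, and the transcription factor ATF4 is known to drive several of these genes when amino acids are scarce.

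RNA was measured on 8 single-colour Affymetrix arrays from THP-1 and HL-60 cells, with 2 arrays in each group whose titles call them biological replicates. The labels describe THP-1 as a line of monocytic leukemia and HL-60 as a line of promyelocytic leukemia, both grown in medium with serum. The 4 groups are THP-1 cells with 100 µM diclofenac, THP-1 cells with DMSO, HL-60 cells with 100 µM diclofenac and HL-60 cells with DMSO, each treated for 48 h. Diclofenac, a cyclooxygenase inhibitor, is used against pain and inflammation, and DMSO is its solvent. Only 1 dose and 1 time were used, and the labels do not say whether the replicates came from separate cultures started apart, so the errors describe the spread between these arrays.

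The deposited values are linear intensities from 0.1 to 39370.8, and the trimmed mean of every array was 500.1 to 500.2. The THP-1 DMSO replicate 2 array stood apart. Its bacterial control probe sets, which have no target in these cells, had a median of 78, against 5.6 to 24.6 on the other arrays, and 50.3% of its probe sets lay above background, against 66.4% to 72.1% elsewhere. Its correlation with replicate 1 was 0.898 across probe sets, whereas replicates of the other groups correlated at 0.977 to 0.984. Values without it are therefore given beside the diclofenac differences in THP-1 of most members and most named genes. List genes compared between the lines are given on all arrays only. Markers did not settle the identity of the lines. The promyelocyte genes ELANE, AZU1, PRTN3, CTSG and MYB were above background on every array of both lines. MPO, the myeloperoxidase, was above it on 3 of 4 THP-1 arrays and 2 of 4 HL-60 arrays. The median intensity of MPO, ELANE, AZU1 and PRTN3 was higher in THP-1, and that of CTSG and MYB in HL-60. The monocyte genes CSF1R, LYZ, ITGAM and CD4 were above background on every array of both lines. FCGR1A was above it on 4 of 4 THP-1 arrays and 2 of 4 HL-60 arrays, and CD14 on 3 of 4 and 0 of 4. Of these monocyte genes only ITGAM had the higher median in HL-60.

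The sequence ahead of the start of 4 genes is shown because their levels differed between groups in different ways, with PHGDH, PSAT1 and MTHFD2 higher with diclofenac in HL-60 and MTHFD1 not. Each run holds the 250 bases before the RefSeq start in GRCh38.p14, 5′ to 3′ on the strand of the gene, in lower case with matches to the searched motifs in capitals.
PHGDH, chr1:119711684-119711933, + strand: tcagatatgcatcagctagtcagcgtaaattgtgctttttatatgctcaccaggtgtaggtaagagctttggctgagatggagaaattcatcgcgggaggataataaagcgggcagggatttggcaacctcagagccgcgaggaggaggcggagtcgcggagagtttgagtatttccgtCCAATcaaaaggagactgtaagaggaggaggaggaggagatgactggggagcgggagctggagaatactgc
PSAT1, chr9:78296875-78297124, + strand: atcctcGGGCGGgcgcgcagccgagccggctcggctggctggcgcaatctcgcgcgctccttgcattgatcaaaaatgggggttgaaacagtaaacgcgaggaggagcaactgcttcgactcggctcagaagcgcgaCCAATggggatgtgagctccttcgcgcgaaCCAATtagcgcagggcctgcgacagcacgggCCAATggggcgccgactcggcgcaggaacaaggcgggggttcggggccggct
MTHFD2, chr2:74198365-74198614, + strand: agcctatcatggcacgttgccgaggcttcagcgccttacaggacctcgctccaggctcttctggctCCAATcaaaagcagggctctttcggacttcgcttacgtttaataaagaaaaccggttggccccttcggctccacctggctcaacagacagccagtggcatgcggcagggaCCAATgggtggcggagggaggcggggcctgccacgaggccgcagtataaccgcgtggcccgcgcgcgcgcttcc
MTHFD1, chr14:64388103-64388352, + strand: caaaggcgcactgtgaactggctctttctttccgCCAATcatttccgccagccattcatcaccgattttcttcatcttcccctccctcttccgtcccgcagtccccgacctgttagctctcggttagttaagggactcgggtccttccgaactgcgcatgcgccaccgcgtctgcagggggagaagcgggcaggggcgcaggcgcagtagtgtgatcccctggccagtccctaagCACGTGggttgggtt

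RefSeq windows of 300 bases, 250 before and 50 after the start, matched 5 of the 7 genes, and PSPH and SHMT2 were not matched. The motifs were searched on both strands, with no overlap between different motifs in these windows. The composite of C/EBP and ATF factors, TGATGNAA, was in 0 of the 5 windows and in 3.62% of all 35116 windows. The E-box CACGTG was in the window of MTHFD1 alone, with its first base at -15 from the start, and in 7.26% of all windows. The GC box GGGCGG was in the windows of PSAT1, at -244, and of SHMT1, and in 45% of all windows. The CCAAT box, with the letters CCAAT, was chosen after the sequences had been seen. It was in each of the 5 windows and in 34.6% of all windows: at -71 in PHGDH, at -113, -83 and -52 in PSAT1, and at -184 and -74 in MTHFD2. A match is a string of letters and not a measured site, and a missing match covers these windows only.

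On the arrays of HL-60 cells, 7 of the 10 probe sets were higher on both diclofenac arrays than on both DMSO arrays and 0 were lower on both. The largest differences were those of PHGDH (1.70-fold), PSAT1 (1.65-fold) and the dimmest of the 3 SHMT2 probe sets (1.57-fold), and MTHFD2 was 1.43-fold higher. In THP-1 cells the members did not move together: PSAT1 was 1.497-fold higher, PSPH and MTHFD1 were at 0.691 and 0.702 of their DMSO level, and PHGDH was within 1.01-fold. None of the 10 passed an adjusted p of 0.05 in limma's fit over 22215 probe sets in either line, where 0.135% of all probe sets passed in THP-1 and 0.0045% in HL-60. At an unadjusted p under 0.05 in limma there were 3 member probe sets in THP-1, where 10.6% of all probe sets reached it. In HL-60 there were 6, with SHMT2 counted by more than 1 probe set, where 4.5% of all probe sets did. Groups that do not overlap are common with 2 arrays each: on the normalized scale 20.1% of all probe sets were higher without overlap in HL-60 and 19.1% lower, and in THP-1 18.7% were higher and 20.9% lower. The median log2 difference was 0.11 over the 10 member probe sets against -0.02 over all probe sets in THP-1, and 0.37 against 0.00 in HL-60. PSPH and SHMT2 enter these medians with more than 1 probe set each. In bulk RNA, fewer cells with a transcript and less transcript per cell cannot be told apart.

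**Figure D1:**
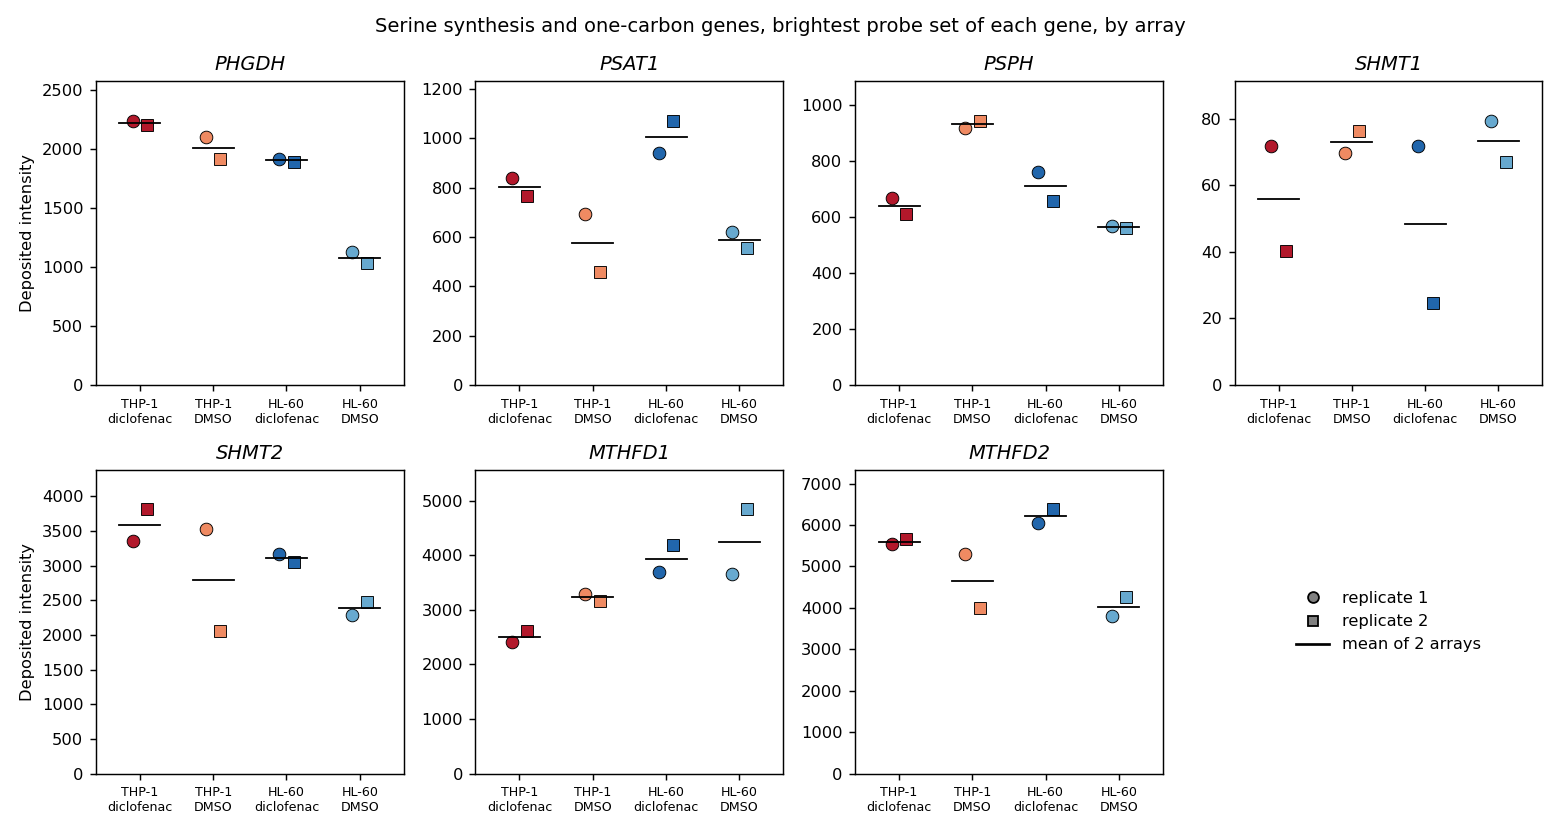
Deposited intensity (vertical axes, starting at 0) of the brightest probe set of each of the 7 genes on each of the 8 arrays, with circles for replicate 1, squares for replicate 2 and a line at the mean of the 2 arrays. PHGDH lay between 1037.5 and 1125.9 on the HL-60 DMSO arrays and at 1889.6 or above on the other 6 arrays; in PSAT1, SHMT2 and MTHFD2 the THP-1 DMSO replicate 2 array lay below replicate 1.

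PHGDH commits carbon to serine synthesis. Its deposited intensity was 2242.8 and 2205.4 on the THP-1 diclofenac arrays, against 2106.9 and 1917.2 on the THP-1 DMSO arrays, and 1920.4 and 1889.6 on the HL-60 diclofenac arrays, against 1125.9 and 1037.5 on the HL-60 DMSO arrays. The HL-60 DMSO arrays were the only low ones, and in HL-60 the groups were far apart; in THP-1 the groups did not overlap in deposited intensity but did after quantile normalization. In THP-1 the log2 difference, diclofenac minus DMSO, was 0.02 ± 0.11 (SE of the fit, n = 2 arrays per group), and 0.11 without THP-1 DMSO replicate 2. In HL-60 it was 0.76 ± 0.11 with an adjusted p of 0.142. That p uses a spread pooled over the 4 groups. The log2 difference was 0.75 without THP-1 DMSO replicate 1, 0.78 without replicate 2, and 0.70 to 0.83 over all single arrays left out. With every array kept, its adjusted p in limma was 0.245 on the deposited scale, 0.9999 with each array centred on its median and 0.54 with a replicate block. These p values do not cover the fits with an array left out. Those fits leave 1 array in a group, so only their log2 differences are given here.

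PSAT1, the aminotransferase of the second step, had intensities of 840.1 and 764 on the THP-1 diclofenac arrays, against 694.3 and 459.6 on the THP-1 DMSO arrays. The HL-60 values were 938.5 and 1071.2 with diclofenac, against 620.7 and 557.2 with DMSO. Both diclofenac groups lay above their DMSO group, by a wide margin in HL-60 and by a narrow one over THP-1 DMSO replicate 1. The log2 difference was 0.58 ± 0.25 in THP-1 (adjusted p = 0.469) and 0.72 ± 0.25 in HL-60 (adjusted p = 0.927). The THP-1 difference was 0.17 without DMSO replicate 2 and 0.99 without replicate 1.

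PSPH, the phosphatase that releases serine, is read by 2 probe sets that did not go the same way in THP-1. The brighter one, 205048_s_at, had 668.4 and 612.1 on the THP-1 diclofenac arrays, against 918.9 and 943.4 on the THP-1 DMSO arrays, and 759.3 and 658.3 on the HL-60 diclofenac arrays, against 568.4 and 558.7 on the HL-60 DMSO arrays. The diclofenac arrays were thus the lower ones in THP-1 and the higher ones in HL-60, with no overlap in either line. Its log2 difference was -0.53 ± 0.14 in THP-1 (adjusted p = 0.302) and 0.34 ± 0.14 in HL-60 (adjusted p = 0.9998). The THP-1 value was -0.51 without DMSO replicate 2 and -0.57 without replicate 1. The other probe set, 205194_at, had 723 and 549.4 on the THP-1 diclofenac arrays, against 529 and 520.9 on the THP-1 DMSO arrays, and 624.9 and 480.4 on the HL-60 diclofenac arrays, against 378.7 and 518.1 on the HL-60 DMSO arrays. It was higher with diclofenac in THP-1 and overlapped in HL-60, with log2 differences of 0.32 ± 0.23 and 0.33 ± 0.23 in THP-1 and HL-60. The THP-1 value was 0.20 without DMSO replicate 2 and 0.45 without replicate 1.

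SHMT2, the mitochondrial hydroxymethyltransferase, is read by 3 probe sets. The brightest, 214096_s_at, had 3349.7 and 3811.2 on the THP-1 diclofenac arrays, against 3523.1 and 2053.9 on the THP-1 DMSO arrays, and 3162.5 and 3052.9 on the HL-60 diclofenac arrays, against 2293.6 and 2480.9 on the HL-60 DMSO arrays. The HL-60 groups did not overlap, and in THP-1 replicate 1 of the DMSO group lay between the diclofenac arrays while replicate 2 lay far below them. Its log2 difference was 0.28 ± 0.14 in THP-1 and 0.33 ± 0.14 in HL-60, and the THP-1 value was 0.06 without DMSO replicate 2 and 0.51 without replicate 1. The probe set 214437_s_at had 1203.5 and 1338.1 on the THP-1 diclofenac arrays, against 1168.8 and 741 on the THP-1 DMSO arrays, and 1139.7 and 1367.9 on the HL-60 diclofenac arrays, against 950.3 and 875.1 on the HL-60 DMSO arrays. It too stood higher in both lines, with log2 differences of 0.43 ± 0.21 in THP-1 and 0.41 ± 0.21 in HL-60, the THP-1 value being 0.12 without DMSO replicate 2 and 0.74 without replicate 1.

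The dimmest SHMT2 probe set, 214095_at, had 526.8 and 515.1 on the THP-1 diclofenac arrays, against 526.2 and 535.8 on the THP-1 DMSO arrays, and 481.3 and 585.5 on the HL-60 diclofenac arrays, against 326.2 and 335.2 on the HL-60 DMSO arrays. Here the THP-1 groups overlapped and the HL-60 groups did not. The log2 difference was 0.06 ± 0.19 in THP-1 (-0.041 without DMSO replicate 2) and 0.65 ± 0.19 in HL-60 (adjusted p = 0.817), so the 3 probe sets of SHMT2 gave differences of 0.06 to 0.43 in THP-1 and of 0.33 to 0.65 in HL-60. SHMT1, its cytosolic counterpart, was above background on 5 of the 8 arrays. Its probe set had 71.7 and 40.3 on the THP-1 diclofenac arrays, against 69.8 and 76.2 on the THP-1 DMSO arrays, and 71.8 and 24.7 on the HL-60 diclofenac arrays, against 79.4 and 67 on the HL-60 DMSO arrays. The groups overlapped in both lines on the normalized scale, and log2 differences of 0.11 ± 0.40 and -0.19 ± 0.40 in THP-1 and HL-60 were smaller than their errors. The THP-1 value was -0.28 without DMSO replicate 2 and 0.50 without replicate 1, and it was -0.23 on the deposited scale.

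MTHFD2, the mitochondrial dehydrogenase and cyclohydrolase, had intensities of 5530.5 and 5672.2 on the THP-1 diclofenac arrays, against 5310.6 and 4002.8 on the THP-1 DMSO arrays. In HL-60 the values were 6053.2 and 6376.3 with diclofenac, against 3805.8 and 4260.2 with DMSO. The groups did not overlap in either line, and the gap was wide in HL-60 and small in THP-1. The log2 difference was 0.12 ± 0.07 in THP-1 (0.11 to 0.15 with single arrays left out) and 0.52 ± 0.07 in HL-60, where the adjusted p was 0.142. Averaged over both lines it was 0.32 ± 0.05, with the lowest adjusted p of the 10 probe sets for that average (0.0905 in limma, where 0.099% of all probe sets passed). The average was 0.30 to 0.34 with single arrays left out.

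MTHFD1, the cytosolic enzyme that interconverts folate forms, had 2408.1 and 2614.2 on the THP-1 diclofenac arrays, against 3291.3 and 3161.3 on the THP-1 DMSO arrays, and 3693.1 and 4181.7 on the HL-60 diclofenac arrays, against 3650.1 and 4838.1 on the HL-60 DMSO arrays. The THP-1 diclofenac arrays were the lowest of the 8, while the HL-60 groups overlapped. The log2 difference was -0.51 ± 0.14 in THP-1 (adjusted p = 0.311) and -0.17 ± 0.14 in HL-60; centring arrays on their medians gave -0.0023 in THP-1 and 0.066 in HL-60, where the median of all probe sets was 0.15 and 0.098. Relative to the median of all probe sets the deposited and the centred scale are the same measure, which gave -0.15 in THP-1 and -0.03 in HL-60. Its THP-1 value was -0.35 without DMSO replicate 2, and without replicate 1 it was -0.67.

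**Figure D2:**
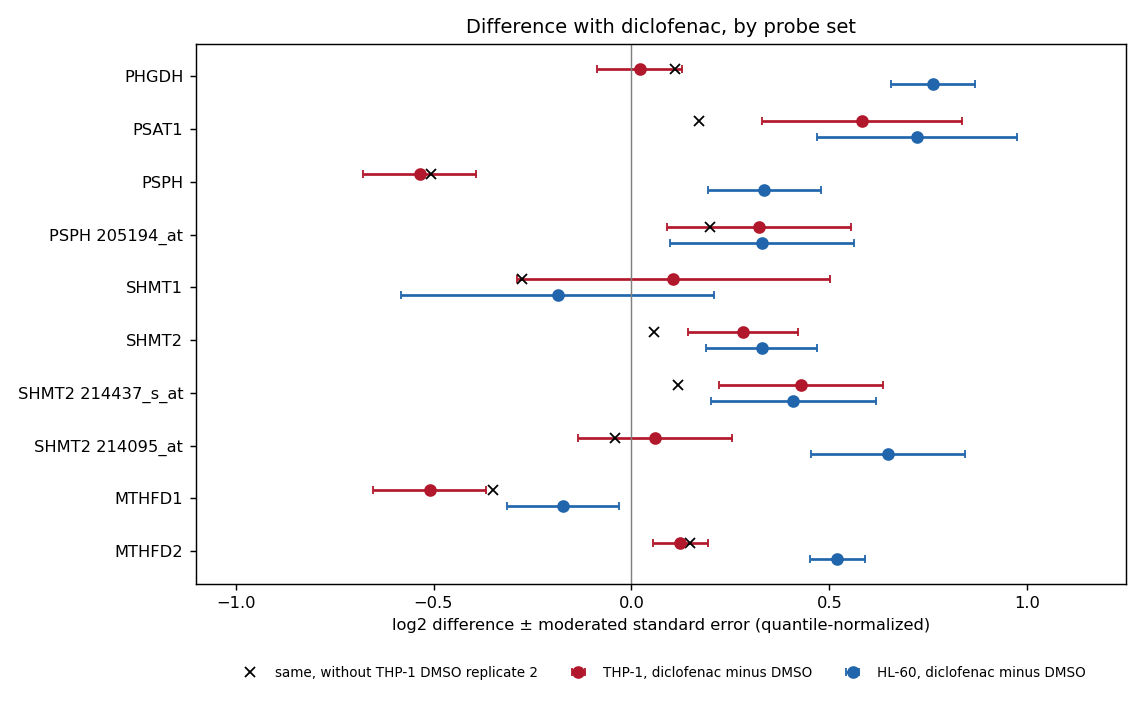
Log2 difference, diclofenac minus DMSO, of the 10 member probe sets (horizontal axis, quantile-normalized values) in THP-1 (red) and HL-60 (blue), with moderated standard errors as bars and black crosses for the THP-1 value without DMSO replicate 2. PHGDH stood at 0.02 in THP-1 and 0.76 in HL-60, PSPH at -0.53 and 0.34, and the crosses of PSAT1 (0.17) and SHMT2 (0.06) lay left of their THP-1 points.

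The scale on which the arrays are compared moves these values, more so in THP-1. After quantile normalization the median difference of all probe sets was -0.02 in THP-1 and 0.00 in HL-60. On the deposited scale it was -0.20 in THP-1 and -0.06 in HL-60, and after centring arrays on their medians 0.15 and 0.10. Relative to that shift the deposited and the centred scale are the same measure, because centring only moves each array by a constant. By it PHGDH stood at 0.35 in THP-1 and 0.85 in HL-60, PSAT1 at 0.67 and 0.79, and MTHFD2 at 0.48 and 0.68. Relative to the brightest 20% of probe sets, PHGDH was at 0.05 in THP-1 and 0.75 in HL-60 and PSAT1 at 0.37 and 0.68. By the same measure MTHFD2 was at 0.18 and 0.58, and MTHFD1 at -0.45 and -0.13. The HL-60 values of PHGDH, PSAT1 and MTHFD2 were above 0.5 by each of these measures, and the THP-1 values of these genes ranged more widely.

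A ratio of 2 probe sets on the same array is free of most of this scaling. The pairs MTHFD2 with MTHFD1 and PHGDH with MTHFD1 were chosen after the values had been seen, and they are given as a description. The log2 ratio of their deposited intensities was 1.20 and 1.12 on the THP-1 diclofenac arrays, against 0.69 and 0.34 on the THP-1 DMSO arrays, and 0.71 and 0.61 on the HL-60 diclofenac arrays, against 0.06 and -0.18 on the HL-60 DMSO arrays. It was higher with diclofenac on every array of each line, by 0.64 in THP-1 and 0.72 in HL-60. PHGDH over MTHFD1 also stood higher with diclofenac in both lines, by 0.51 in THP-1 and 0.91 in HL-60.

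Without the drug the lines differed in the level of some of these transcripts. PHGDH was 1.93-fold higher in THP-1 cells with DMSO than in HL-60 cells with DMSO, and PSPH was 1.66-fold higher by its brighter probe set. With limma, 3 of the 10 probe sets were higher in THP-1 and 0 lower at an adjusted p under 0.05, where 15.3% of all probe sets passed in either direction. This comparison shares its DMSO arrays with the comparisons above by which the genes were known. With diclofenac in both lines 1 of 10 passed, MTHFD1, lower in THP-1, where 13% of all probe sets passed.

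For PHGDH the log2 difference between the lines with DMSO, THP-1 minus HL-60, was 0.95 ± 0.11 (95% interval 0.70 to 1.19, limma adjusted p = 0.000541). It was 0.88 without THP-1 DMSO replicate 2 and passed whichever single array was left out, whereas centring each array on its median gave 0.63 with an adjusted p of 0.375. With diclofenac the difference was 0.21 ± 0.11 (95% interval -0.04 to 0.45, adjusted p = 0.316). The 4 groups of PHGDH therefore ran from HL-60 with DMSO at 1082 ± 62.5, below the rest, through HL-60 with diclofenac at 1905 ± 21.8 and THP-1 with DMSO at 2012 ± 134, which do not differ beyond their spread, to THP-1 with diclofenac at 2224 ± 26.4 (mean intensity ± SD, n = 2). The several-symbol probe set 212995_x_at, annotated with PHGDH, MZT2A and MZT2B, was also higher in THP-1 with DMSO, by 0.66 ± 0.09 (adjusted p = 0.00117).

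PSPH by its brighter probe set differed by 0.73 ± 0.14 between THP-1 and HL-60 with DMSO (adjusted p = 0.00968), and by -0.14 ± 0.14 with diclofenac. The DMSO difference missed the threshold without either HL-60 DMSO array (0.0629 without replicate 1 and 0.0553 without replicate 2) and under centring (0.44, adjusted p = 0.499). The other PSPH probe set differed by 0.19 ± 0.23 with DMSO (adjusted p = 0.646), and the mean of both by 0.46 with an adjusted p of 0.126. MTHFD2 passed as well, at 0.29 ± 0.07 (adjusted p = 0.0226), but its groups overlapped in deposited intensity. Centring gave -0.044, with a median of -0.28 over the brightest 20% of probe sets. The deposited and the centred scale are the same measure once a median is taken off. On it MTHFD2 stood at 0.24 relative to the brightest 20% and at -0.0039 relative to all probe sets. It missed the threshold without either HL-60 DMSO array (0.126 and 0.0611), without THP-1 DMSO replicate 2 (0.0504) and without either THP-1 diclofenac array (0.0571 and 0.0565).

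MTHFD1 with diclofenac was lower in THP-1 than in HL-60 by a log2 difference of -0.63 ± 0.14 (limma adjusted p = 0.0204), at 2511 ± 146 in THP-1 and 3937 ± 345 in HL-60. The difference missed the threshold with each array centred on its median (-0.68, adjusted p = 0.59) and without the intensity trend (adjusted p = 0.112). It kept between -0.56 and -0.70 when single arrays were left out, and missed the threshold whichever of the 4 diclofenac arrays was left out (adjusted p 0.078 and 0.152 without HL-60 replicates 1 and 2, and 0.154 and 0.0868 without THP-1 replicates 1 and 2). With DMSO the difference was -0.29 ± 0.14 (adjusted p = 0.222), and it was -0.47 without THP-1 DMSO replicate 2 and -0.13 without replicate 1. SHMT2 by its 3 probe sets differed between the lines with DMSO by 0.24, 0.01 and 0.57, and none passed. Without THP-1 DMSO replicate 2 these were 0.47 (adjusted p = 0.013), 0.34 (0.184) and 0.70 (0.037), so 2 of the 3 passed, in a fit that called 18.6% of all probe sets. PSAT1 changed sign with the array left out: -0.16 ± 0.25 with all arrays, 0.27 without THP-1 DMSO replicate 2 and -0.57 without replicate 1.

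**Figure D3:**
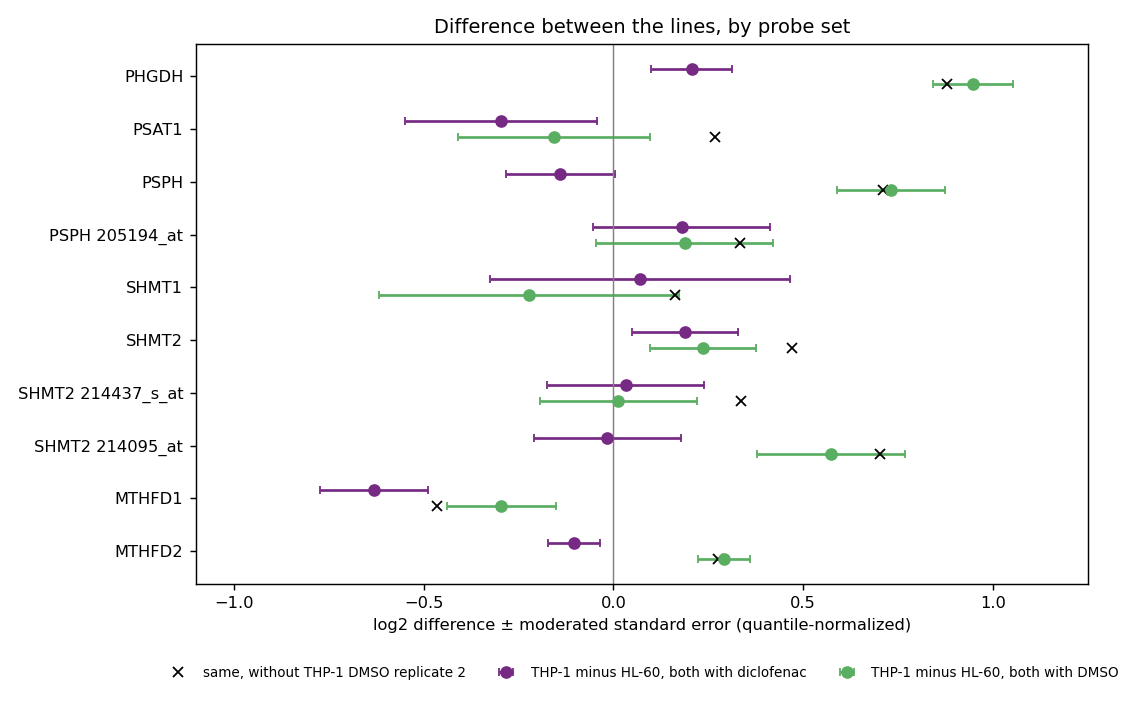
Log2 difference, THP-1 minus HL-60, of the 10 member probe sets (horizontal axis, quantile-normalized values) with diclofenac in both lines (purple) and with DMSO in both lines (green), with moderated standard errors as bars and black crosses for the DMSO value without THP-1 DMSO replicate 2. PHGDH stood at 0.21 with diclofenac and 0.95 with DMSO, and MTHFD1 at -0.63 and -0.29.

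The difference between the lines in their change with diclofenac was tested by the interaction term, which is built from the same values by which the genes were known. None of the 10 probe sets passed in limma, where 0.0045% of all probe sets did, and 3 had an unadjusted p under 0.05, against 6.94% of all probe sets. The interaction of PHGDH was -0.74 ± 0.15 (95% interval -1.09 to -0.40, adjusted p = 0.341), that of PSPH by its brighter probe set -0.87 ± 0.20 (adjusted p = 0.412) and that of MTHFD2 -0.40 ± 0.10 (adjusted p = 0.433). PSAT1 had -0.14 ± 0.36 (95% interval -0.96 to 0.68), an interval that leaves room for differences larger than its own change in either line. The same 3 probe sets passed without THP-1 DMSO replicate 1 (adjusted p 0.00688, 0.0121 and 0.0312), when 18.2% of all probe sets did. Without replicate 2 their adjusted p was 0.177, 0.181 and 0.305.

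The pathways around these enzymes were read from 6 lists with 59 genes, of which 48 had a probe set. With diclofenac 0 of the 48 passed in limma in THP-1 and 0 in HL-60, while 0.167% and 0.00836% of all 11963 genes passed in THP-1 and HL-60. In limma 9 and 7 of the 48 had an unadjusted p under 0.05, as did 10.6% and 4.5% of all probe sets. Those shares are over probe sets, dim ones included, and not over genes read by their brightest probe set, so they are not a like base for the 48. The median log2 difference of the 48 was -0.06 in THP-1 against -0.01 over all genes, and 0.03 in HL-60 against 0.00.

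CTH, the lyase that releases cysteine from cystathionine, had the largest difference of the lists in HL-60. It was at 112.3 and 52.5 on the THP-1 diclofenac arrays, against 62.1 and 185.8 on the THP-1 DMSO arrays, and at 965.8 and 942.5 on the HL-60 diclofenac arrays, against 249.1 and 376.3 on the HL-60 DMSO arrays. The HL-60 diclofenac arrays were far above the rest, THP-1 DMSO replicate 2 was not above its background, and the log2 difference in HL-60 was 1.51 ± 0.34 (2.86-fold, adjusted p = 0.623). FOLR1, a folate receptor, was higher with diclofenac by 0.81 ± 0.35 in THP-1 and by 0.69 ± 0.35 in HL-60, and did not pass. Its THP-1 value was 0.44 without DMSO replicate 2 and 1.17 without replicate 1. Another folate receptor gene, FOLR3, was above background on 2 arrays only, those of HL-60 with diclofenac, where it was at least 1.45-fold higher than with DMSO (adjusted p = 0.817). BHMT, which remethylates homocysteine from betaine, was above background on the THP-1 DMSO arrays alone (49.8 and 297.1, the higher being replicate 2) and was at least 1.57-fold lower with diclofenac in THP-1 (adjusted p = 0.261).

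The list of other purine synthesis enzymes holds steps that carry no folate, among them the supply of ribose phosphate. In THP-1 0 of 9 lay above 0 after quantile normalization (median -0.20), 2 of 9 on the deposited scale (-0.16) and 9 of 9 after centring arrays on their medians (0.19), where the median of all probe sets was 0.15. Relative to the brightest 20% of probe sets, to which 8 of the 9 belong, the THP-1 median was -0.20 after quantile normalization and -0.25 on the deposited or the centred scale. Relative to all probe sets it was -0.19 after quantile normalization and 0.04 on the deposited or the centred scale. Those scales are the same measure once such a median is taken off. Without THP-1 DMSO replicate 2 the quantile-normalized median was -0.14, with 2 of 9 above 0. In HL-60 4 of 9 lay above 0 after quantile normalization (median -0.07), and none passed in either line. PAICS, at 3105 and 3257.4 on the THP-1 diclofenac arrays against 4070.1 and 3355.6 on the THP-1 DMSO arrays, had a log2 difference of -0.37 ± 0.08 (adjusted p = 0.206) in THP-1. In the serine use and transport list 8 of 10 genes lay above 0 in THP-1 (median 0.26) and 7 of 10 in HL-60 (median 0.07). Its THP-1 median was 0.08 without DMSO replicate 2 and 0.37 without replicate 1, where 5 of 10 passed and 31% of all probe sets did. Relative to the brightest 20% of probe sets the THP-1 median was 0.26 after quantile normalization and -0.05 on the deposited or the centred scale, again the same measure. SERINC3, a serine incorporator protein of membranes, was the highest of that list in THP-1, at 0.55 ± 0.18 (adjusted p = 0.366), and 0.39 without DMSO replicate 2. The lists of other folate cycle enzymes, glycine cleavage and methionine cycle had medians between -0.20 and 0.00 in THP-1 and between -0.10 and 0.04 in HL-60, and the median of the folate uptake list was 0.14 in THP-1 and 0.19 in HL-60. Their THP-1 medians moved with the scaling: as deposited they were -0.037 for the folate cycle, -0.34 for glycine cleavage, -0.079 for the methionine cycle and -0.086 for folate uptake, where all probe sets had -0.20, and after centring all 4 were above 0. Without THP-1 DMSO replicate 2 they were 0.067, -0.25, 0.0064 and 0.079. ALDH1L1, which burns off formyl folate, stood at 0.55 ± 0.38 in THP-1, and AMT and GLDC of the glycine cleavage system at -0.63 ± 0.36 and -0.69 ± 0.44. Without THP-1 DMSO replicate 2 these were 0.29, -0.32 and -0.25. In HL-60 PPAT, the first enzyme of purine synthesis, stood at -0.35 ± 0.18, and MAT1A and GGH were not above background on enough arrays for a fold. The interaction of CTH was -1.48 ± 0.47 (adjusted p = 0.57).

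**Figure D4:**
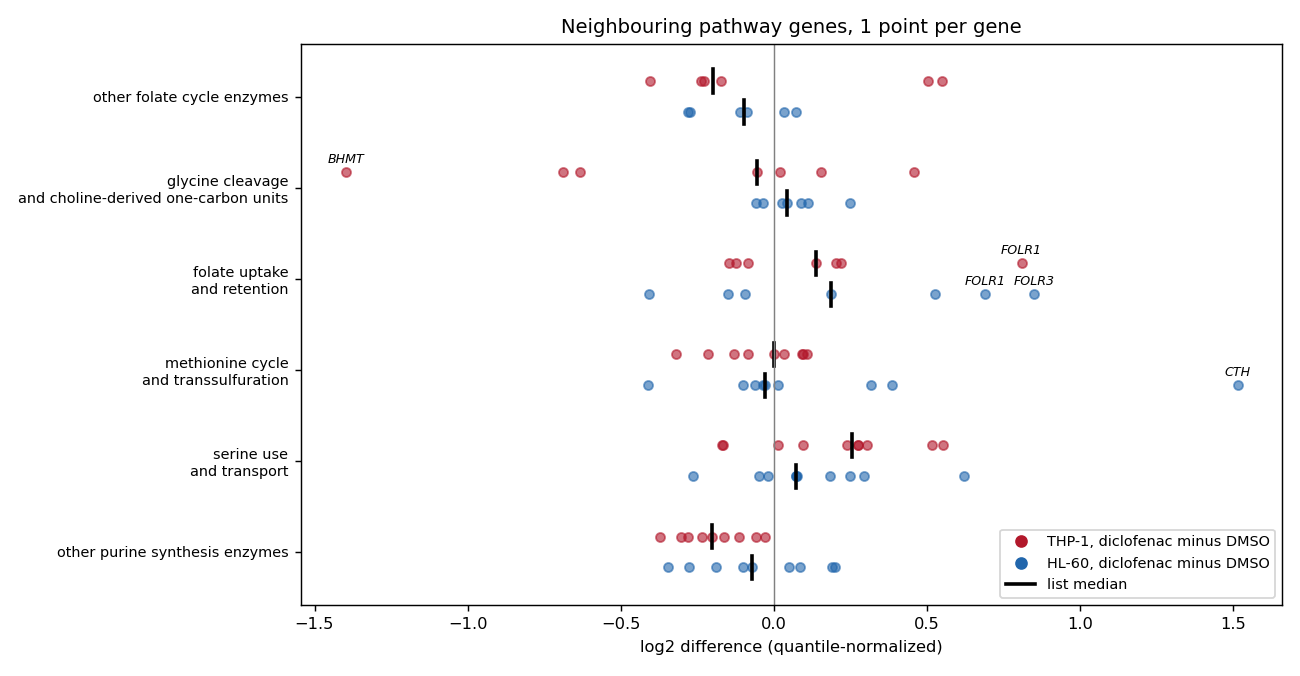
Log2 difference, diclofenac minus DMSO (horizontal axis, quantile-normalized values), of the 48 measured genes of the 6 lists, 1 point per gene, in THP-1 (red) and HL-60 (blue), with the median of each list as a black bar. CTH lay at 1.51 in HL-60, the point of BHMT in THP-1 is no measured fold because its diclofenac arrays were not above background, and the 9 purine enzymes in THP-1 lay left of 0 on this scale, whereas median centring, which gave the brightest 20% of probe sets a median of 0.45, put them right of 0.

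Between the lines the lists differed more. With DMSO 8 of 48 genes were higher and 6 lower in THP-1 than in HL-60, where 18.6% of all genes passed, and with diclofenac 7 were higher and 6 lower, where 16% did. GGH, the hydrolase that trims folate polyglutamates, had 1469.4 and 1149.9 on the THP-1 DMSO arrays, against 74.3 and 33.3 on the HL-60 DMSO arrays, a log2 difference of 3.80 ± 0.30; with diclofenac it was not above background in HL-60 and was at least 12-fold higher in THP-1. AHCYL1, a relative of the adenosylhomocysteine hydrolase, was higher in THP-1 by 2.49 ± 0.10 with DMSO and 2.28 ± 0.10 with diclofenac. SLC1A4, a carrier of serine and alanine, was lower in THP-1, with 593.7 and 618.4 on the THP-1 DMSO arrays against 2553.4 and 2918.9 on the HL-60 DMSO arrays (-2.10 ± 0.14). CTH was lower in THP-1, with a log2 difference of -1.37 ± 0.34 with DMSO (adjusted p = 0.0264) and of -2.85 ± 0.34 with diclofenac (adjusted p = 0.00074).

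Of the genes that supply ribose phosphate for purines, PRPS1 and PRPS2 were lower in THP-1, at -1.03 ± 0.16 and -0.79 ± 0.12 on the log2 scale with DMSO and at -1.32 ± 0.16 and -0.63 ± 0.12 with diclofenac. ADSL and GMPS, enzymes of later purine steps, were higher in THP-1 with DMSO, by 0.79 ± 0.08 and 0.71 ± 0.11, and PAICS by 0.30 ± 0.08. SPTLC2, a subunit of the enzyme that joins serine to fatty acid in sphingolipid synthesis, was lower in THP-1 with DMSO (-1.47 ± 0.24). SERINC1, MTRR, which reactivates methionine synthase, and DLD, a subunit of the glycine cleavage system, were higher in THP-1 with DMSO by 1.29 ± 0.21, 0.67 ± 0.15 and 0.45 ± 0.08. SLC25A32, the mitochondrial folate carrier, was lower with DMSO (-0.52 ± 0.12). FOLR3 was at least 1.48-fold lower in THP-1 with diclofenac (adjusted p = 0.0381).

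Likeness of pattern was measured as Pearson's r over the 8 arrays among 5717 genes above background on each of them. Since the arrays fall into 4 groups, r largely follows the group means, and the THP-1 DMSO replicate 2 array can also move it. The genes most like PHGDH were ATF4 (r = 0.979), KDM5A (0.970) and NDUFB3 (0.960), and r was 0.978, 0.983 and 0.975 without THP-1 DMSO replicate 2. Among the members, r with PHGDH was 0.812 for MTHFD2, 0.686 for PSPH, 0.645 for SHMT2, 0.181 for PSAT1 and -0.647 for MTHFD1. The order turned on that array: without it SHMT2 had 0.950, MTHFD2 0.862, PSAT1 0.724 and PSPH 0.642. The genes most like PSAT1 were CDC16, RNF103 and UQCRB (0.973, 0.948 and 0.934). Without that array these were 0.956, 0.877 and 0.856, while r of PSAT1 with MTHFD2 went from 0.595 to 0.921, above RNF103 and UQCRB. Those most like PSPH were DPM2, MDH2 and MINDY2 (0.959, 0.955 and 0.952) and those most like SHMT2 were RITA1, SMG5 and UNC50 (0.963, 0.963 and 0.956). For MTHFD1 they were SSX2IP, TSPAN5 and ICAM4 (0.970, 0.967 and 0.961), and for MTHFD2 ACADVL, RPS3 and DICER1 (0.906, 0.903 and 0.901). For SHMT1, a dim probe set, they were PMS2P1, MNT and LSM1 (0.938, 0.861 and 0.860 among 5718 genes).

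The several-symbol probe set 209980_s_at, annotated with SHMT1 and a microRNA gene within it, had 50.8 and 113.4 on the THP-1 diclofenac arrays, against 98.1 and 55 on the THP-1 DMSO arrays, and 127 and 205.2 on the HL-60 diclofenac arrays, against 66.4 and 192.1 on the HL-60 DMSO arrays. The groups overlapped in both lines, and its log2 differences of 0.39 ± 0.61 in THP-1 and 0.49 ± 0.61 in HL-60 were below their errors. The other, 212995_x_at, had 3549.7 and 3658.4 on the THP-1 diclofenac arrays, against 4367.3 and 3351.4 on the THP-1 DMSO arrays, and 2974.4 and 3329.1 on the HL-60 diclofenac arrays, against 2498.5 and 2734.3 on the HL-60 DMSO arrays. Its log2 difference was -0.25 ± 0.09 in THP-1 (adjusted p = 0.39) and 0.22 ± 0.09 in HL-60 (adjusted p = 0.963), smaller in HL-60 than that of the PHGDH probe set.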

How the data were processed

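Gene expression was measured in 8 samples of 2 leukemia lines. Per the labels, biotinylated cRNA was made from 10 µg of total RNA and hybridised to Affymetrix arrays. The authors deposited 1 linear intensity per probe set and array; the software behind it is not given in the sources used here. The number of arrays limits the precision. Groups, dose and time came from the labels.

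Intensities were turned to log2 of the value plus 50, the 62 control probe sets were left out, and quantile normalization was applied because array medians ranged over 0.87 log2 units, above the limit of 0.5 in the rule for it. Group means were fitted on all 8 arrays with limma 3.58.1 in R 4.3.3 (eBayes with an intensity trend, 4 residual degrees of freedom), and the Benjamini-Hochberg adjustment ran over the 22215 probe sets of each comparison, with a threshold of 0.05. For each gene the brightest probe set on average was used, and probe sets marked x_at were taken only where there was no other. A probe set was above background on an array if it exceeded percentile 95 of the 27 bacterial controls there. A fold against a group with no array above background is a lower bound, taken against the lowest signal above background on each array. Fold changes understate those of dim probe sets because of the added 50.

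The members and the lists were chosen with earlier results of these data known, and the named genes were every member probe set and, of the lists, each gene past the threshold or among the 3 highest and 3 lowest of a comparison, the average and part of the interaction being left out of the text. Replicate numbers did not pair the arrays: deviations of same-numbered arrays correlated at -0.01 in THP-1 and -0.00 in HL-60. No pair of arrays held identical columns. Alternatives were the deposited scale, median centring, an offset of 16, leaving out the dimmest 40%, eBayes without the trend, a replicate block, a fit per line, averaging the probe sets of PSPH and SHMT2, and leaving out single arrays. Lists under other scalings, lists and members relative to the brightest 20% of probe sets, and lists and their genes without either THP-1 DMSO array were added after seeing the data. The fit was tested on simulated data whose changes were far larger than those of the members and whose arrays all had the same spread. That test does not cover differences of the members' size or an array that stands apart. Promoter windows are from RefSeq (GRCh38.p14). Python 3.11.15 with matplotlib 3.10.9 drew the figures.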

Additional observations from a re-analysis of the deposited data

Results flagged for a closer look

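The brighter probe set of PSPH, 205048_s_at, stood out because every THP-1 array with diclofenac lay below both THP-1 DMSO arrays while every HL-60 array with diclofenac lay above both HL-60 DMSO arrays. The difference between the 2 changes, THP-1 minus HL-60, was -0.87 ± 0.20 on the log2 scale and did not pass in limma (adjusted p = 0.412, unadjusted p = 0.00229). It was -0.62 with each array centred on its median and -0.81 on the deposited scale. It was -0.90 without THP-1 DMSO replicate 1 and -0.85 without replicate 2. The other PSPH probe set, 205194_at, had a difference of -0.01 ± 0.33.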

How the results depend on the processing

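Of 866 values of member probe sets under the alternatives, 47 turned sign, and 19 differences between the lines kept their sign and no longer passed. Values that newly passed did so only with a THP-1 DMSO array left out, and diclofenac differences were among them. Where nothing else is said, the cause was not tested. Of the 47, 14 were diclofenac differences: PHGDH in THP-1 was -0.068 without THP-1 DMSO replicate 1, SHMT1 was between -0.28 and -0.087 in THP-1 under 3 settings and 0.16 in HL-60 under 1, SHMT2 214095_at in THP-1 was -0.025 as deposited and -0.041 without THP-1 DMSO replicate 2, and MTHFD1 in HL-60 was 0.066 centred. For the average, MTHFD1 was 0.032 centred, PSPH 0.16 centred and 0.11 as the mean of its probe sets, and SHMT1 0.056 to 0.15 under 3 settings. The number of probe sets called for diclofenac in HL-60 was 1, and 2 on the deposited scale, 0 when arrays were centred, 5 without the dimmest 40%, 0 without the intensity trend, 3 with HL-60 fitted alone and 0 to 11 with single arrays left out. In THP-1 it was 30, and 51, 0, 53 and 0 under the same settings, 0 with THP-1 fitted alone and 0 to 6892 with single arrays left out, the highest without THP-1 DMSO replicate 1. For the average it was 22, and 0 centred, 0 without the trend, 10 with a replicate block and 1 to 4640 with single arrays left out. For the interaction it was 1, and 2 as deposited, 0 centred, 0 without the trend, 0 with a replicate block and 0 to 4042. Between THP-1 and HL-60 with DMSO it was 3396 (1680 higher, 1716 lower), 1145 centred (426 higher, 719 lower) and 1701 to 9089 with single arrays left out; with diclofenac it was 2892, 1028 centred and 1263 to 5103. The replicate numbers share no source in the labels, and the replicate block moved MTHFD2 between the lines with DMSO to an adjusted p of 0.0631.

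The other 33 were interactions and differences between the lines. With arrays centred, the interaction was 0.16 for PSPH 205194_at and 0.22 for SHMT2 (0.028 as deposited), and the difference between lines with DMSO was -0.017 for PSPH 205194_at, -0.067 for SHMT2, -0.21 for SHMT2 214437_s_at and -0.044 for MTHFD2. SHMT2 214437_s_at had an interaction of -0.0072 as deposited and a difference with diclofenac of -0.023 centred, and PSPH one of 0.020 as the mean of its probe sets. With single arrays left out, the interaction ran over -0.57 to 0.27 for PSAT1, -0.24 to 0.23 for PSPH 205194_at, -0.090 to 0.68 for SHMT1, -0.28 to 0.18 for SHMT2 and -0.30 to 0.33 for SHMT2 214437_s_at. The difference between lines with DMSO ran over -0.57 to 0.27 for PSAT1, -0.052 to 0.42 for PSPH 205194_at, -0.61 to 0.16 for SHMT1 and -0.30 to 0.34 for SHMT2 214437_s_at, and with diclofenac over -0.27 to 0.41 for SHMT1, -0.11 to 0.18 for SHMT2 214437_s_at and -0.17 to 0.14 for SHMT2 214095_at. SHMT1 was among the dimmest 40% and gave no value without them; its signal near background limits what it can show.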
